A study of Mus musculus with 10 samples.

Results

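The regions described here were 221 of 4917 reproducible peak regions of HA-tagged SET, called in mouse embryonic stem cells lacking their own SET. They lay at the end of a long noncoding RNA gene and away from every protein-coding gene end. They were chosen by peak calls in the 4 addback libraries. Overlapping peaks (by at least 1 bp) were merged, and a region was kept where both SETα addback libraries or both SETβ addback libraries had a peak. Its midpoint had to be within 1000 bp of an end of a noncoding gene and over 1000 bp from every coding gene end. A −log10 q of at least 2 was reached in 1 or more addback libraries by 146 of the 221 regions (66.1%, with 66.9% over all 4917). Lists of peaks that passed the authors' replicate comparison held 21 of them (9.50%, with 12.1% over all). When only peaks with −log10 q of 2 or more were merged, the rule gave 53 regions. In the gene table used, every autosomal noncoding gene that qualified had the biotype lncRNA. Of the other reproducible regions, 2859 lay at coding gene ends, of which 352 were also within 1 kb of a noncoding gene end, and 1837 lay near neither. The 221 regions had 208 different nearest noncoding genes. Counted over all 10949 noncoding genes on the 17 autosomes analysed, 217 genes had such a region within 1 kb of an end, or 1.98%. With the regions shared with coding gene ends added, the count was 555 genes, or 5.07%. Chromosomes 8 and 11 were not analysed here.

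SET is a histone-binding protein of chromatin, and its isoforms SETα and SETβ differ at the N-terminus. All 8 libraries came from lines derived from KH2 embryonic stem cells, in which the HA-tagged isoform was expressed from a doxycycline-inducible transgene. In the addback lines (KH2 SET-KO pBS31-HA-SETa and KH2 SET-KO pBS31-HA-SETb) the endogenous SET gene was knocked out. In the overexpression lines (KH2 pBS31-HA-SETa and KH2 pBS31-HA-SETb) it was intact according to the series' design text. Every line received 1 µg/ml doxycycline for 24 h and was fixed with DSG, a protein-to-protein crosslinker, and then formaldehyde, after removal of feeder cells. Chromatin was precipitated with an HA antibody, with 2 replicates in each of the 4 groups. Each group is a line of its own, so line and group cannot be told apart. The labels do not say that replicates came from separate cultures, so the spread between them may be technical. The 2 uninduced SET KO samples of the series are not used here, and the values therefore stand without a background from cells lacking the tagged protein. The cell type was taken from the labels, since peak lists hold no expression of marker genes.

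Long noncoding RNA genes are transcribed by RNA polymerase II from promoters of their own, and many share a CpG-rich promoter with a coding gene that runs the other way. Regions whose midpoint was near a coding gene end were left out, although a wide region can still reach closer to one. Host genes of small nucleolar RNAs carry those RNAs in their introns. Transfer RNA genes, short genes read by RNA polymerase III from an internal promoter with an A box and a B box, lie beside some of the noncoding genes described below.

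The promoter windows printed next were picked to show CpG-rich and CpG-poor start sites, and a tRNA gene, under regions of an addback IDR list. Each runs from 250 bases before to 50 bases after an annotated start site in the gene's direction, and was taken from RefSeq (GRCm38.p6). Capitals mark matches to the motifs searched on both strands: GCGCATGC for NRF1, CCGGAAGT for ETS factors, GGGCGG for SP and KLF factors, TGACGTCA for CRE-binding factors, TATAAA for the TATA box and GTTCGANNC for the B box. The first 3 are the windows of 1700028E10Rik (chr5:151368425-151368724, plus strand), Gm34507 (chr17:4908072-4908371, plus strand) and A630066F11Rik (chr10:7663121-7663420, plus strand), all in regions with peaks for both isoforms. The next, of Gm46404 (chr13:23445922-23446221, minus strand), holds a tRNA gene. Those of Gm10777 (chr10:81996673-81996972, plus strand) and Gm4262 (chr16:11008648-11008947, plus strand) are shown because they hold few CpG dinucleotides.
1700028E10Rik: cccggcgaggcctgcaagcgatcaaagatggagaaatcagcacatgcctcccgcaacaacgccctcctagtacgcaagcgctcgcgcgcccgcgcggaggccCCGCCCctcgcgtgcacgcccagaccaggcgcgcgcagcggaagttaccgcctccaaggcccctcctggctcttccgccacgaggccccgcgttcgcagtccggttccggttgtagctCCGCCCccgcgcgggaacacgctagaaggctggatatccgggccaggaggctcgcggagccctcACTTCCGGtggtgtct
Gm34507: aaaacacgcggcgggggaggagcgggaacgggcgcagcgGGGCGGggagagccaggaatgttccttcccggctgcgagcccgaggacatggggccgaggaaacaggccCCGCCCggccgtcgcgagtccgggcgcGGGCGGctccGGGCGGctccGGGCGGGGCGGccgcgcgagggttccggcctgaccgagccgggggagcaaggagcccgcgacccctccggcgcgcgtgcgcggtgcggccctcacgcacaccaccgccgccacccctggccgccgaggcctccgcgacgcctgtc
A630066F11Rik: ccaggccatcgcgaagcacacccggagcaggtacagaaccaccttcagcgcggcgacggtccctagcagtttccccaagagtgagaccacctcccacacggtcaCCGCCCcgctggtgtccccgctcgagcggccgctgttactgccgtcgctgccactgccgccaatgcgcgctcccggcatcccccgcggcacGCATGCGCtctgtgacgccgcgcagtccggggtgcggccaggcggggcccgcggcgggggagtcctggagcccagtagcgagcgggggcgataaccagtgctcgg
Gm46404: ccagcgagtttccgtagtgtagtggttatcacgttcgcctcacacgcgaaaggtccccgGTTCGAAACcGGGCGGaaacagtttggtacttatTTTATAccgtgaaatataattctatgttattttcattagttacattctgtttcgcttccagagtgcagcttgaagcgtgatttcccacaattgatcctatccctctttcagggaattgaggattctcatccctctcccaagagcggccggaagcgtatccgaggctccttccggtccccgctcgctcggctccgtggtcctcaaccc
Gm10777: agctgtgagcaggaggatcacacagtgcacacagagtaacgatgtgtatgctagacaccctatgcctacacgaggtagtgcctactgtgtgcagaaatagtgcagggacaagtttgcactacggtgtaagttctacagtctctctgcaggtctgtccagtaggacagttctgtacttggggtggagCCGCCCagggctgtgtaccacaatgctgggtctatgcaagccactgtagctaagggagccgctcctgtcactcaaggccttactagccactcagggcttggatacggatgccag
Gm4262: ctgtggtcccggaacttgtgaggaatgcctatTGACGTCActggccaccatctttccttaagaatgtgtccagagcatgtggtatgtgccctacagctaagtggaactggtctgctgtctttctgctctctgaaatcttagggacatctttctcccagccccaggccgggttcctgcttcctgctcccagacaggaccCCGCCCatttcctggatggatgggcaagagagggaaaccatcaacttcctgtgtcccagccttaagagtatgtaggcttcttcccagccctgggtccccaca

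All 6 windows lay wholly inside their regions. GC content was 69.7% in the window of 1700028E10Rik, 79.3% in that of Gm34507 and 72.0% in that of A630066F11Rik. CpG dinucleotides numbered 38, 49 and 37 in the same order. The window of Gm10777 held 6 CpG dinucleotides and that of Gm4262 held 4, so peaks were also called at CpG-poor start sites. The Gm34507 window had GGGCGG or its complement at 6 positions, the A630066F11Rik window had 1 NRF1 match, and the 1700028E10Rik window had 1 ETS match. In the Gm46404 window, bases 8 to 80 are the valine tRNA gene n-TVcac9, and the B box match at position 60 falls within it. A match is a description of the letters and not evidence of a bound factor.

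At the promoters of the noncoding genes, CpG content was higher under SET regions than elsewhere. RefSeq windows were matched for 101 start sites of 90 genes overlapped by a region. Their median GC content was 60.7% and their median CpG observed over expected ratio 0.744, a ratio that is 1 where CpG is as frequent as its bases allow. In the 9506 windows of noncoding genes with no reproducible region, the medians were 48.0% and 0.232. The interquartile ranges of the ratio did not overlap, at 0.489 to 0.891 and 0.126 to 0.390. Coding windows overlapped by a coding gene-end region (2248 windows) had medians of 64.0% and 0.843. GGGCGG was found in 52.5% of the overlapped noncoding windows, in 16.2% of all 10011 noncoding windows and in 70.8% of the overlapped coding windows. The CpG-containing motifs for ETS factors (4.95%, all noncoding windows 1.52%), NRF1 (3.96%, all 1.20%), CRE-binding factors (3.96%, all 0.979%) and the B box (2.97%, all 0.599%) were each found in 3 to 5 of the 101 windows. The TATA box was in 4.95% of them and in 15.5% of all noncoding windows, and CCAAT in 26.7% and 35.9%. For YY1 (AAGATGGC) the shares were 0.990% and 2.11%, for ZBTB33 (CTCGCGAG) 0.990% and 0.310%, for the E-box (CACGTG) 6.93% and 5.76%, for the octamer (ATTTGCAT) 0.990% and 1.91%, and for CCCTC, the core of the CTCF motif, 69.3% and 59.0%. Windows matched for GC content were not compared, so the part of base composition in these shares was not tested. Among the 101 windows, those of Gm3255 and Gm52298, both on chromosome 17, had identical letters and were counted separately. How reads with several matches were treated is not given in the sources used here, so the placing of peaks between these copies is uncertain.

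**Figure D1:**
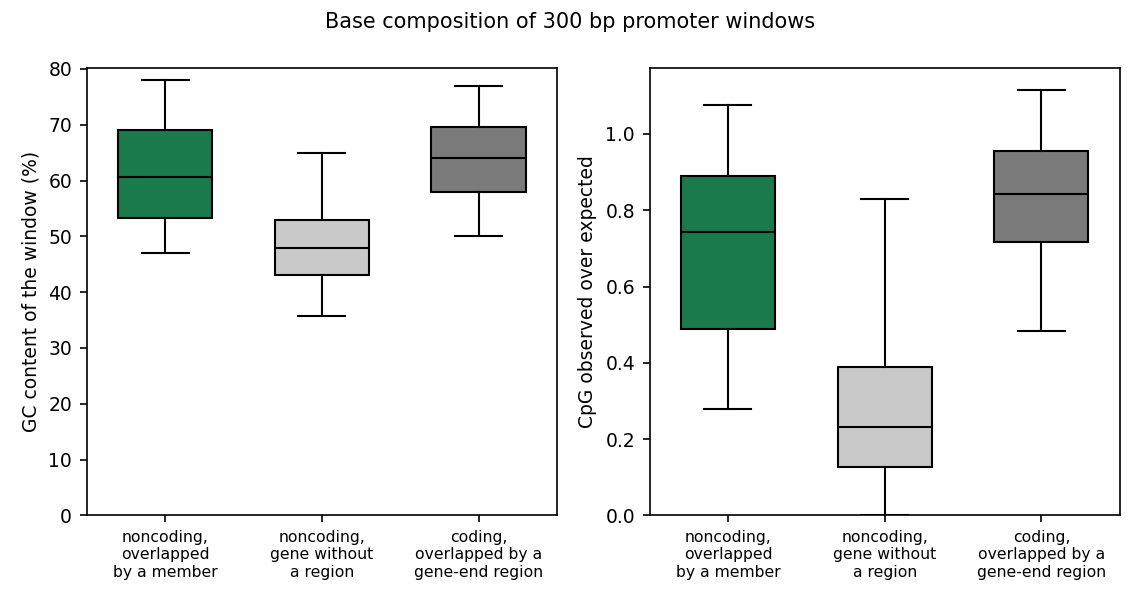
GC content in percent (left) and CpG observed over expected ratio (right) of 300 bp promoter windows, with boxes from the first to the third quartile, a line at the median and whiskers from the 5th to the 95th percentile. The 101 noncoding windows overlapped by a region have a median ratio of 0.744, against 0.232 in the 9506 windows of noncoding genes without a region and 0.843 in the 2248 coding windows.

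The regions lay around noncoding start sites more often than at 3′ ends. Strand was known for 174 of the 221 regions (78.7%), through the promoter table, which held no chromosome 18 gene. The nearest gene end was the 5′ end in 146 of them (83.9%, Wilson 95% interval 77.7 to 88.6), and in 2222 of 2321 coding gene-end regions (95.7%). Midpoints were upstream of the nearest start site in 86 regions and downstream in 88. Of these 174 regions, 89 (51.1%) overlapped the 300 bp promoter window itself. Each 200 bp step within 200 bp of the start site held more regions (24 upstream and 23 downstream) than any step farther out. Of the 18 regions with a known strand in a list of peaks that passed the authors' replicate comparison, all 18 were nearest to the 5′ end and 17 overlapped the promoter window.

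**Figure D2:**
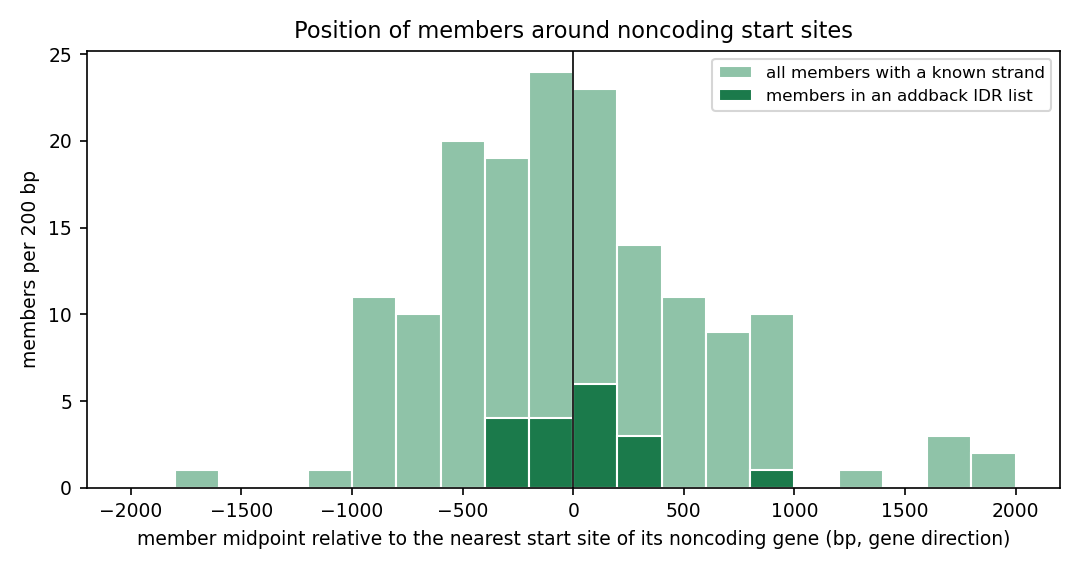
Position of region midpoints relative to the nearest start site of their noncoding gene, in bp along the gene's direction (negative is upstream), counted in steps of 200 bp. The 174 regions with a known strand are in light green and the 18 of them in an addback IDR list in dark green, and 15 regions lie beyond the 2000 bp shown.

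Distance from coding gene ends did not mean distance from coding genes. The midpoint lay inside the body of a coding gene in 114 regions (51.6%, 45.0 to 58.1), where 68.7% of all reproducible regions did so. It lay inside a noncoding gene in 109 regions (49.3%, with 8.99% over all regions), inside both kinds in 46 (20.8%, with 4.25%) and inside neither in 44 (19.9%, with 26.5%). The name "noncoding only" therefore describes gene ends. Shares inside noncoding genes follow in part from the rule, which asks for a noncoding gene end nearby. The median distance was 387 bp to the noncoding gene end and 6946 bp to the nearest coding gene end. By the symbol of the nearest gene, 135 regions were at a predicted (Gm) gene, 55 at a Rik gene, 6 at an opposite-strand transcript and 25 at a gene with another symbol. More than 1 region was found at 11 genes, with 24 regions between them.

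The regions next to the distance limits are given for reference. Just within 1 kb of a noncoding gene end lay the regions at Rap1gapos (979 bp, highest −log10 p 6.50) and A930004D18Rik (986 bp, 4.93). Just beyond it lay those at Gm44140 (1006 bp, 6.36) and Gm52210 (1007 bp, 6.50). On the coding side, regions at D330025C20Rik (1027 bp from Kcng2, highest −log10 p 5.33) and Zfp335os (1039 bp from Zfp335, 10.0) were kept. Regions at Gm34736 (982 bp from Lemd2, highest −log10 p 10.5) and Gm15545 (990 bp from Prmt1, 5.44) were not.

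Most regions were seen with SETα and not with SETβ. Of the 221 regions, 211 had a peak in SETα addback replicate 1 and 212 in replicate 2. For SETβ addback the counts were 53 and 83. Peak lists were also longer for SETα than for SETβ, with 22176 and 15701 peaks for SETα and 2518 and 9768 for SETβ, and the part of list length in these counts was not tested. Peaks in both SETα libraries and in no SETβ library were found in 132 regions (59.7%, Wilson 95% interval 53.1 to 66.0). Over all reproducible regions that share was 55.9%, and at coding gene ends 49.0%. Both SETβ libraries had a peak in 47 regions (21.3%, with 23.2% over all regions). The SETβ pair alone, with no SETα peak, marked 8 regions (3.62%, with 1.71% over all regions and 1.12% at coding gene ends). All 4 libraries had a peak in 36 regions (16.3%, 12.0 to 21.7), where the share was 18.4% over all regions and 24.1% at coding gene ends. These calls were used by the rule, so they are a description, and the intervals cover counting error only.

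**Figure D3:**
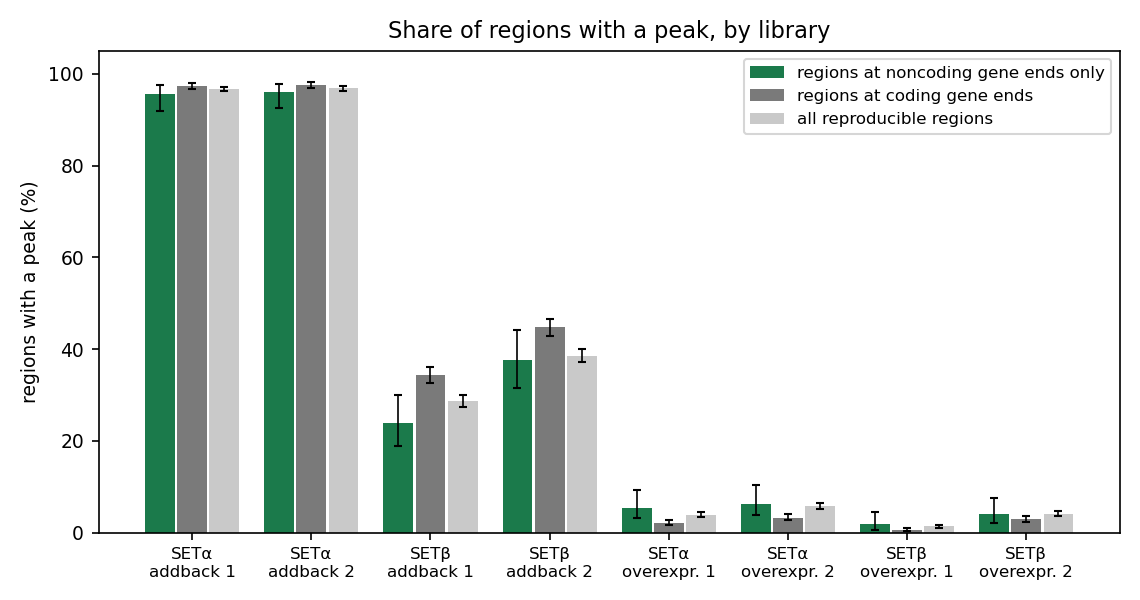
Share of regions with a peak in each of the 8 libraries, in percent, for the 221 regions at noncoding gene ends only, the 2859 at coding gene ends and all 4917, with Wilson 95% intervals. The 221 regions have a peak in over 95% of cases in each SETα addback library, in 24.0% and 37.6% in the SETβ addback libraries, and in 1.81% to 6.33% in the overexpression libraries.

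By the median, the significance of the peaks was near that over all regions, and the shares that passed stricter limits were lower. The highest −log10 p of a region over the addback libraries had a median of 6.50 (interquartile range 5.04 to 8.20), the same median as over all regions, and reached 56.8. A −log10 q of at least 2 was reached in 1 or more addback libraries by 146 regions (66.1%, with 66.9% over all regions), in all 4 by 13 (5.88%, with 10.0% over all regions). A −log10 q of at least 5 in 1 or more was reached by 40 (18.1%, with 21.5%). Median fold enrichment over the peak caller's local background was 3.24 and 3.68 in the SETα libraries and 3.72 and 3.31 in the SETβ libraries. The authors also deposited lists of peaks that passed the irreproducible discovery rate (IDR), which compares the ranks of a peak in both replicates. The SETα addback IDR list held 16 of the regions (7.24%, with 10.4% over all regions and 13.8% at coding gene ends). The SETβ addback IDR list held 15 (6.79%, with 9.33% and 13.2%). Both lists held 10 (4.52%, with 7.65% and 10.9%), and either list 21 (9.50%, 6.30 to 14.1, with 12.1% and 16.1%). No region was in an overexpression IDR list, where 15 of all 4917 were.

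The 10 regions in both IDR lists had a peak in every addback library. The −log10 p values are set side by side here as deposited, and since they move with read depth, which is not given in the sources used here, an order between libraries does not show an order of occupancy. The first lay at 1700028E10Rik (chr5:151368409-151369281), inside the coding gene Stard13, 170 bp past the noncoding start site. Its −log10 p was 49.3 and 42.7 with SETα and 56.8 and 28.6 with SETβ, at fold enrichments of 13.9, 14.6, 12.3 and 7.80. Norad, an abundant noncoding RNA that binds Pumilio proteins, had its region at chr2:156392613-156393420, 37.5 bp from a gene end. There −log10 p was 30.0 and 17.0 with SETα and 46.4 and 30.3 with SETβ, and fold enrichment was at least 7.80 in every library. At Gm34507 (chr17:4907971-4908875) −log10 p was 38.2 and 42.7 for SETα and 38.9 and 40.8 for SETβ. The −log10 p ranges of the isoforms overlapped at 1700028E10Rik and Gm34507, and at Norad both SETβ values were above both SETα values. Fold enrichment at Norad was 9.96 and 7.80 with SETα and 11.0 and 9.07 with SETβ, so by that measure the ranges overlapped.

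Another region of this set was at A630066F11Rik, inside Pcmt1, which encodes a protein repair methyltransferase. It had −log10 p of 27.8 and 32.3 with SETα and 30.9 and 14.1 with SETβ, so the ranges of the isoforms overlapped. Gm46404 had 27.8 and 28.6 with SETα and 28.8 and 24.4 with SETβ, and Gm10777 had 18.3 and 21.5 against 26.3 and 19.7. At 1500015A07Rik −log10 p was 11.1 and 19.4 with SETα and 22.4 and 17.8 with SETβ. Gm42007, inside Sirt4, a mitochondrial sirtuin gene, and Gm16630, inside Krba1, were the only regions, of the 9 described, higher in both SETα libraries than in both SETβ libraries, and Norad the only one with the reverse. Their values were 15.4 and 16.0 against 10.2 and 7.66 for Gm42007, and 10.0 and 10.9 against 8.49 and 8.97 for Gm16630. Of the 10 regions, 5 lay inside a coding gene.

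**Figure D4:**
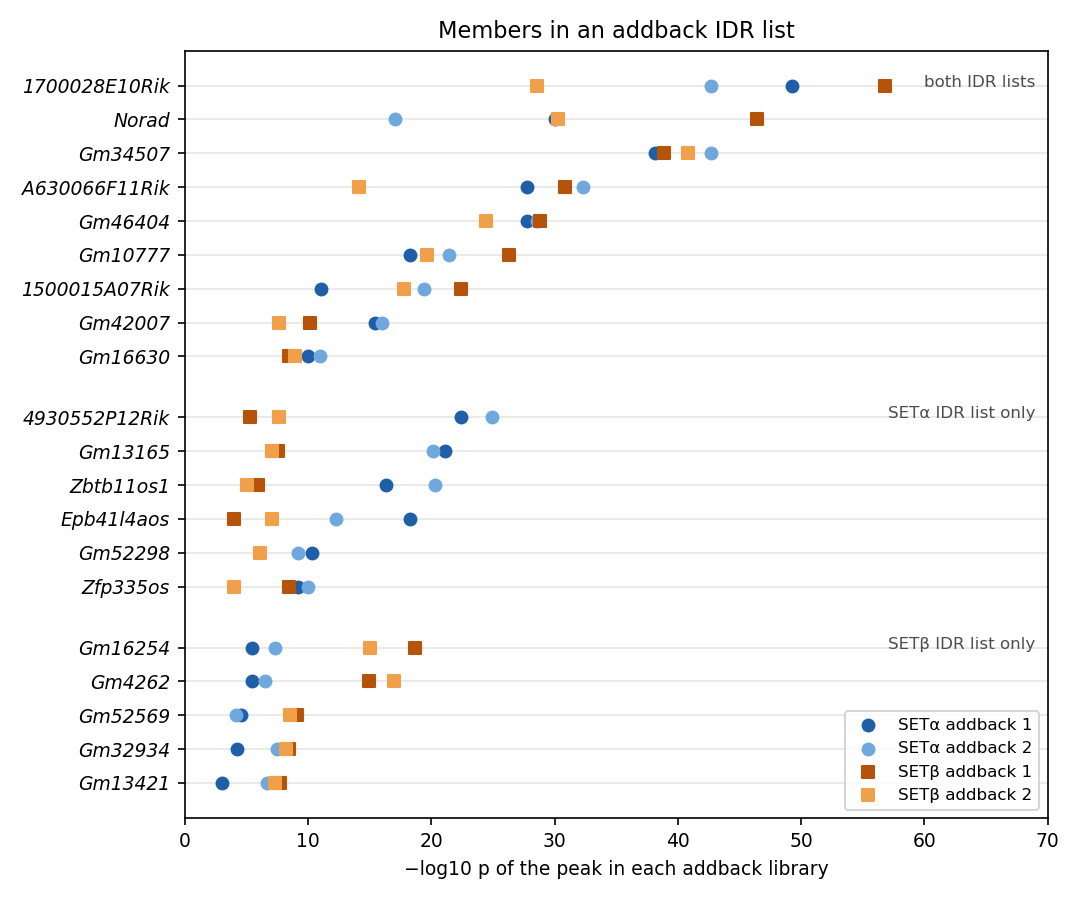
The −log10 p of the peak in each addback library for 20 of the 21 regions in an addback IDR list, named by nearest noncoding gene, with SETα replicates as blue circles and SETβ replicates as orange squares. In the upper 9 the isoforms mostly overlap, whereas the SETα points lie to the right in the 6 regions of the SETα list only and the SETβ points lie to the right in the 5 of the SETβ list only.

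The other regions in an IDR list were in that of 1 isoform. They were named after their values were seen, as were the regions near tRNA genes described below. The list membership itself selects for the isoform, so their values carry no test. At 4930552P12Rik (chr19:55702006-55702515) −log10 p was 22.4 and 24.9 with SETα and 5.29 and 7.67 with SETβ. Gm13165 had 21.1 and 20.1 against 7.55 and 7.05. Zbtb11os1, inside Zbtb11, a zinc finger gene it runs opposite to, had 16.4 and 20.3 against 5.93 and 5.07. All 3 also had a peak in each SETβ library. Epb41l4aos, Gm52298 and Zfp335os completed the SETα set, and Gm52298 had no peak in SETβ addback replicate 1. In the SETβ set, Gm16254 (chr10:7608521-7609015) had 5.44 and 7.33 with SETα and 18.7 and 15.0 with SETβ. Gm4262 (chr16:11008255-11009309) had 5.44 and 6.50 against 15.0 and 17.0. Gm52569, Gm32934 and Gm13421 had lower SETβ values, from 7.33 to 9.10, and each still had a peak in both SETα libraries.

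Across the 36 regions with a peak in all 4 addback libraries, ranks by −log10 p were more alike within an isoform than between isoforms. Spearman's rho was 0.82 between the SETα replicates and 0.70 between the SETβ replicates. Between isoforms it ran from 0.41 to 0.53 over the 4 pairs of libraries. The replicates of an isoform share a cell line, and regions are not independent samples, so these are descriptions.

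Of the 18 host genes of small nucleolar RNAs of the list on the analysed autosomes, 6 had a region, where 1.98% of all noncoding genes did. They were Epb41l4aos, Snhg5, Snhg7, Snhg8, Snhg9 and Snhg17. A region at Snhg6 was also at the end of the coding gene Mcmdc2 and so was not counted. Epb41l4aos (chr18:33794292-33795114) had the highest value of these, with −log10 p of 18.3 and 12.2 with SETα and 4.03 and 7.05 with SETβ. Snhg8 had 2.94 and 5.70 with SETα and a peak in SETβ addback replicate 2 only, at 5.27. The others had SETα peaks alone, from 3.41 at Snhg9 to 6.40 in the other replicate of the same gene. At Snhg5, Snhg7, Snhg8, Snhg9 and Epb41l4aos the region was also within 1 kb of a small nucleolar RNA gene.

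Of 7 genes on these autosomes from the list of nuclear architecture and widely expressed noncoding RNAs, 4 had a region. Norad is described above. Malat1, which encodes an abundant RNA of nuclear speckles, had its region 917.5 bp upstream of its start site (chr19:5803383-5803796), with −log10 p of 6.88 and 10.9 with SETα and no SETβ peak. Miat had 4.77 and 3.51, and Pvt1, the neighbour of Myc, had 4.12 and 4.20, also with SETα alone. Norad was thus the only gene of this group in an IDR list. Neat1, a paraspeckle RNA, had no region.

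Among 18 noncoding genes described in embryonic stem cells, 2 had a region. At the HoxA cluster, a region 72 bp from an end of Hotairm2 and within 1 kb of an end of Hotairm1 (chr6:52158484-52158718) had −log10 p of 6.15 and 4.60 with SETα. Platr22 had 6.15 and 4.20 with SETα, and neither had a SETβ peak. None of the 9 imprinted noncoding genes had a region, H19, Meg3, Airn and Kcnq1ot1 among them, and neither did Vaultrc5, the 1 structured RNA of the last list on these autosomes. At the background of 1.98% of all noncoding genes, fewer than 1 gene of lists this short would have a region.

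Transfer RNA genes lay within 1 kb of 10 regions (4.52%, Wilson 95% interval 2.48 to 8.13). Over all reproducible regions the share was 1.14%, at coding gene ends 0.455% and near neither kind of gene end 1.80%. These regions came from few places, so they are not independent of each other. On chromosome 3, several regions between 96450547 and 96459710 at Gm26232 (3 regions), Gm10685 and Gm40099 held or adjoined histidine and asparagine tRNA genes. On chromosome 13, the tRNA genes were beside C230035I16Rik, Gm40833, Gm46404 and Gm32298, and on chromosome 16 beside Gm41421. A tRNA gene lay wholly inside 7 of the 10 regions. All 10 had a peak in both SETα addback libraries, and 2 had a peak in both SETβ addback libraries, where the shares over all regions were 95.2% and 23.2%. The latter were Gm46404, with the values above, and a Gm26232 region (chr3:96451151-96451645) with −log10 p of 6.45 and 6.65 for SETα and 5.38 and 3.88 for SETβ. This region held the asparagine tRNA gene n-TNgtt11. Copies of tRNA genes are nearly identical, and how reads with several matches were treated is not given in the sources used here, so the position of these peaks among the copies is uncertain. Small nuclear RNA genes lay within 1 kb of 4 of the 221 regions (1.81%, with 0.427% over all reproducible regions and 0.210% at coding gene ends).

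The overexpression libraries, which the rule did not use, overlapped few of the regions. For SETα overexpression, 12 and 14 regions had a peak in replicates 1 and 2 (5.43% and 6.33%), and for SETβ overexpression 4 and 9 (1.81% and 4.07%). Over all reproducible regions the shares were 3.86% and 5.78% for SETα and 1.40% and 4.17% for SETβ. In the last library the share in the regions at noncoding genes was thus nearly that over all. The peak lists were 4807 and 7675 peaks long for SETα and 1343 and 2869 for SETβ. Each SETα library was above each SETβ library, and the means were 5.88% ± 0.64 (SD, n = 2) and 2.94% ± 1.60 (SD, n = 2). The difference of 2.94 percentage points had a two-sided exact permutation p = 0.333, the smallest that 2 against 2 libraries can give. It reversed when chromosome 6 was left out, to −0.51 points (exact permutation p = 1), and was 1.58 points (exact permutation p = 1) when only overexpression peaks with −log10 q of 2 or more were used. Both SETα overexpression libraries had a peak in 12 regions (5.43%, with 3.54% over all reproducible regions), and both SETβ overexpression libraries in 3 (1.36%, with 1.08%). At least 1 library had a peak in 17 regions (7.69%, with 8.48% over all regions).

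Against coding gene-end regions, the regions at noncoding genes were overlapped more often in each of the 4 overexpression libraries. The shares at coding gene ends were 2.10% and 3.32% for SETα and 0.665% and 2.90% for SETβ. The mean difference between the regions at noncoding genes and those at coding gene ends was 2.16 percentage points (SD of the 4 differences 1.17), with a two-sided exact sign-flip permutation p = 0.125, the smallest that 4 libraries can give. Without chromosome 6 it was 0.34 points (exact permutation p = 0.25), and in SETβ overexpression replicate 1 the direction turned, at 0.510% against 0.566% at coding gene ends. The share with a peak in at least 1 overexpression library was then 2.55% against 3.02%. The regions near neither kind of gene end had higher shares than those at noncoding genes in all 4 libraries, at 6.42% and 9.53% for SETα and 2.504% and 6.15% for SETβ.

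A stretch of chromosome 6 (chr6:118215074-135250304) carried most of these overlaps. Of the 13 regions there, 12 had an overexpression peak (92.3%). The same was true of 197 of all 218 reproducible regions in that stretch (90.4%). Outside it, 5 of 208 regions had an overexpression peak (2.40%, Wilson 95% interval 1.03 to 5.50), and 4.68% of all regions. Both SETα overexpression libraries had a peak in 10 of the 13 regions there (76.9%, with 64.7% of the 218), and both SETβ overexpression libraries in 2 (15.4%, with 3.21% of the 218). The stretch was picked after its values were seen, and without it the differences above were −0.48 points between isoforms and 0.26 points from coding gene-end regions.

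Inside the stretch, Lockd, a noncoding gene next to the cell cycle inhibitor gene Cdkn1b, had a region of 1414 bp (chr6:134927851-134929264). Its −log10 p was 5.40 and 12.8 in the SETα overexpression libraries and 3.16 in SETβ overexpression replicate 2, and 5.75, 8.78 and 6.92 in the 3 addback libraries with a peak. At 1700055D16Rik, inside the phosphatase gene Dusp16, 1 of 2 regions had a peak in all 4 overexpression libraries, with −log10 p from 3.08 to 6.41. Gm36533, inside Fam234b, was the other region of the stretch with all 4, from 3.04 to 8.75. Gm36428, Gm38896, Gm32673, Gm34755, Gm4651 and 1700063H04Rik had peaks in both SETα overexpression libraries, with fold enrichments from 2.49 to 3.83. For the same 6 regions, fold enrichment ran from 2.37 to 5.23 in the SETα addback libraries, so the ranges overlapped.

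Outside the stretch, 2 regions had peaks in several overexpression libraries. Gm40237 (chr4:118547797-118548229) had −log10 p of 18.4 and 25.3 with SETα and 10.3 and 17.8 with SETβ under overexpression, and 7.88 and 5.57 in the SETα addback libraries with no SETβ addback peak. Its fold enrichment was 2.84, 3.29, 2.29 and 2.85 under overexpression and 1.64 in both SETα addback libraries. It was the only region with a higher −log10 p in all 4 overexpression libraries than in any addback library. At Gm35279 (chr13:98993461-98994425) −log10 p was 4.76 and 4.70 with SETα and 4.70 in SETβ overexpression replicate 2, close to 4.77 and 4.20 in the SETα addback libraries. None of the 21 regions in an addback IDR list had an overexpression peak, a count near that given by the share of 7.69% over all 221 regions.

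**Figure D5:**
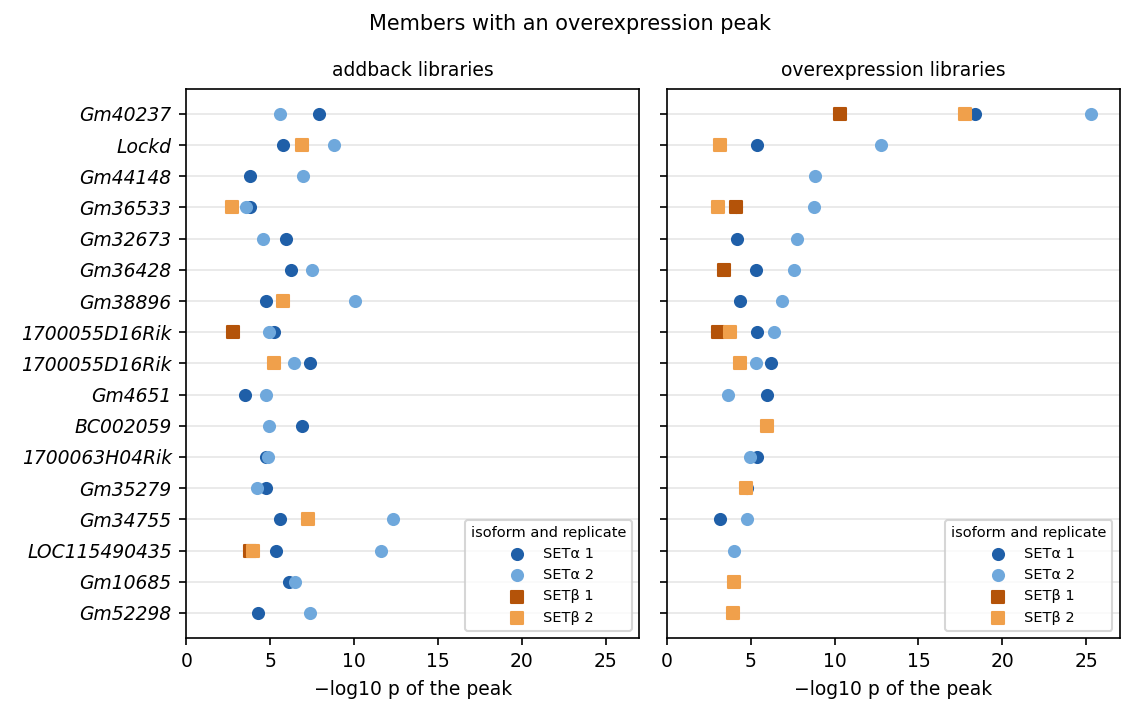
The −log10 p of the peak in each addback library (left) and each overexpression library (right) for the 17 regions with an overexpression peak, named by nearest noncoding gene, with a missing point where no peak was called. Gm40237 stands to the right of the others under overexpression, at 10.3 to 25.3, and the remaining regions lie below 13 in every library.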

How the data were processed

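Peak lists of 8 ChIP-seq libraries and 4 lists of replicate-compared peaks were used as deposited. Per the submitters' processing notes, Bowtie2, MACS2, deepTools and the builds GRCm38 and mm10 were used, and their settings, versions, control library and read depth are not given in the sources used here. There is a deposited peak list for each library, called by the authors without pooling replicates. The deposited score, the fold enrichment (a linear ratio over local background), the −log10 p and the −log10 q of a peak are the authors' values. They were used to describe peaks, and values of different libraries stand side by side without a test, since their depths are unknown. In the IDR lists, the deposited score is a scaled irreproducible discovery rate. Peaks on the mitochondrial genome and sex chromosomes were left out.

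Merging, placing against the RefSeq gene table (GRCm38.p6, 10949 noncoding and 18010 coding genes), Wilson intervals and exact permutation tests over libraries were computed with Python 3.11.15, pandas 2.3.3, numpy 2.4.6 and scipy 1.17.1, and the placing rule was tested on simulated regions. Intervals cover counting error only. The regions, gene lists and tests were chosen with earlier results of these data known. Named genes are those of regions in both addback IDR lists (except 1 region, which is counted but not reported here), with peaks in 2 or more overexpression libraries, at genes of 5 lists, or next to a distance limit, and regions in 1 IDR list or near tRNA genes were named after their values were seen. The rule allowed 10 of the second kind, and all 12 are named. Alternatives were other windows, summits, stricter q, wider overlaps, omitted chromosomes and omitted libraries.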

Additional observations from a re-analysis of the deposited data

How the results depend on the processing

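The exact tests cannot pass 0.05 with this number of libraries, so a kept side of the threshold says nothing about stability. The SETα minus SETβ difference in overexpression overlap (2.94 points) was −0.51 without chromosome 6 and −0.48 without its overlapping stretch, the latter chosen after seeing the data. It was 1.58 (exact permutation p = 1) with overexpression peaks of −log10 q 2 or more, and 2.04 (exact permutation p = 0.667) with an overlap of 50% of the shorter, and in neither did every SETα library exceed every SETβ library. The mean difference from coding gene-end regions stayed positive under every alternative run, although not in each library without chromosome 6, at 0.26 to 2.504 points. Leaving out 1 library at a time gave 1.81 (without SETβ overexpression replicate 1) to 4.07 points for the first difference and 1.78 to 2.504 for the second. Replicate numbers did not pair the libraries (correlation of their deviations −0.012 over the 221 regions). With a replicate block, the first difference was 2.94 points with an exact permutation p = 0.5, the smallest that 2 pairs can give.

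When only addback peaks with −log10 q of 2 or more were merged, the rule gave 53 regions, with 39.6% in an addback IDR list and 24.5% with peaks in all 4 libraries. A window of 500 bp for both distance limits gave 171 regions, and so admitted regions 500 to 1000 bp from a coding gene end. The share with peaks in all 4 libraries was then 23.4%, against 16.3% with 1000 bp. The SETα pair alone gave 210 regions and the SETβ pair alone 47, both chosen after seeing the data. The other window, the summit, the wider overlap and the omission of chromosome 6 gave 170 to 243 regions. Read depth is not given in the sources used here, so a missing peak means only that none was called.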
